A study of Homo sapiens with 12 samples.

Results

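The 10 genes described here encode enzymes that make, elongate, desaturate and activate fatty acids: ACLY, ACSS2, ACACA, FASN, ELOVL5, ELOVL6, SCD, FADS1, FADS2 and ACSL3. They were taken by name from the 34687 genes of an expression array table, and all 10 had 1 row there. No cut on their values was used, but they were chosen with earlier results of these data known. Their signals are given across 2 cancer cell lines that received the solvent DMSO, the drug ICG-001 or the drug C646.

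Fatty acids are built in the cytosol from acetyl-CoA, which ACLY makes from citrate and ACSS2 makes from acetate. ACACA carboxylates acetyl-CoA to malonyl-CoA, the committed step, and FASN joins these units into palmitate. Elongases such as ELOVL6 (saturated and monounsaturated chains) and ELOVL5 (polyunsaturated chains) lengthen the product, SCD places the first double bond in saturated chains, FADS1 and FADS2 desaturate polyunsaturated chains, and ACSL3 couples fatty acids to CoA for use in membranes and lipid droplets. Transcription of many of these genes is driven by the sterol regulatory element binding proteins, products of SREBF1 and SREBF2, which SCAP escorts out of the endoplasmic reticulum when sterols are low and INSIG1 and INSIG2 hold back. Tumor cells often make fatty acids themselves rather than take them up.

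RNA was taken from whole cultures of HCT116, a human colon cancer line, and PANC1, a human pancreatic adenocarcinoma line, grown in medium with serum. Each line received DMSO at 0.05%, the solvent control, ICG-001 at 10 uM, or C646 at 10 uM, and was collected after 12 or 96 h. ICG-001 binds the co-activator CBP and blocks its contact with β-catenin, and C646 inhibits the acetyltransferase activity of CBP and p300. The 12 groups had 1 column of signal each, which was the authors' mean of 2 arrays in 11 columns and of 3 arrays in PANC1 ICG-001 12 h. With single arrays not used here, a group was 1 value, so the differences below carry no error, no test and no p-value. By the study's methods the cells treated for 12 h were denser when the drug was added than those treated for 96 h, and the latter were passaged and given new medium and drug daily, so time and culture density cannot be told apart. Because RNA came from whole cultures, fewer cells expressing a gene and less RNA per cell cannot be told apart either.

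The signal is the brightness of labelled RNA on a gene's probe, on a linear scale with background left in. The detection limit of a column, set from its background peak, was a signal between 142.97 and 143.97 for HCT116 columns and between 134.62 and 138.03 for PANC1 columns, and 44.47% to 47.99% of the 34687 genes of the table were above it. Among genes under the limit, log2 ratios between columns had an SD of 0.062 to 0.073. Genes were kept in a comparison if either column exceeded its limit. Here "fell" and "rose" mean a ratio of at least 1.5-fold. Of the colon markers, CDX2 was above the limit in 6 of 6 HCT116 columns and KRT20 in 1, and CDX1, CDH17 and LGALS4 were in 0. In PANC1 the markers VIM, CAV1, KRT7 and AXL were above it in 6 of 6 columns, with VIM at 14637.0 to 18144.3 against 257.2 to 335.1 in HCT116. KRT7, at 147.9 to 185.2 in PANC1 and 140.0 to 388.8 in HCT116, did not set PANC1 apart, and CDX2 was above the limit in PANC1 too, at 187.2 to 222.8 against 353.6 to 451.5 in HCT116. The colon markers LGALS4 and CDH17, under the limit throughout HCT116, were above it in 5 and 2 of the 6 PANC1 columns, at up to 155.1 and 139.8. PTPRC of leukocytes and PECAM1 of endothelium were under the limit in all 12 columns, while ALB of hepatocytes was just above it in all 12, at 148.2 to 169.6.

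Of the 10 genes, 8 were above the limit in all 12 columns. FADS2 was above it in 3 of 6 HCT116 columns and in 6 of 6 PANC1 columns, and ELOVL6 in 6 of 6 HCT116 columns and 5 of 6 PANC1 columns. Levels of different genes come from different probes and are not set against each other.

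Sequence upstream of the genes is shown for SCD, FADS1, ELOVL5 and ACLY, each of which fell in at least 1 comparison of ICG-001 with DMSO. Each is the 250 bases before a start site listed by RefSeq on build GRCh38.p14, 5′ to 3′ on the gene's strand, with CCAAT, the core of the NF-Y motif, in capitals on either strand (ATTGG is its reverse complement).
SCD, chr10:100346983-100347232, plus strand: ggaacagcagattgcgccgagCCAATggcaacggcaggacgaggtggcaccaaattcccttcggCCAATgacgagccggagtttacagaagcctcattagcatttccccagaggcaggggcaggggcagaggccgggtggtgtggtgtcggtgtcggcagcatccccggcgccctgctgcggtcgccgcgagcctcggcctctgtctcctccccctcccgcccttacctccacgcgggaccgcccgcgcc
ACLY, chr17:41919023-41919272, minus strand: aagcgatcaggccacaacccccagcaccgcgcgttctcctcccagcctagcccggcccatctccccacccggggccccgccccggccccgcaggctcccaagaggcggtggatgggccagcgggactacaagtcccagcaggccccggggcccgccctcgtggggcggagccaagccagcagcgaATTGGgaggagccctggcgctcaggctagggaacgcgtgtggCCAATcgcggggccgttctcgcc
ELOVL5, chr6:53348951-53349200, minus strand: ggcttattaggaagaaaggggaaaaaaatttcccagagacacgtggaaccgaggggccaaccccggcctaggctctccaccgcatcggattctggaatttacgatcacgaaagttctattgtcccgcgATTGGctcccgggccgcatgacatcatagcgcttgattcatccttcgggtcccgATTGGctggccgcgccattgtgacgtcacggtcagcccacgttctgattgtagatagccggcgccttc
FADS1, chr11:61817004-61817253, minus strand: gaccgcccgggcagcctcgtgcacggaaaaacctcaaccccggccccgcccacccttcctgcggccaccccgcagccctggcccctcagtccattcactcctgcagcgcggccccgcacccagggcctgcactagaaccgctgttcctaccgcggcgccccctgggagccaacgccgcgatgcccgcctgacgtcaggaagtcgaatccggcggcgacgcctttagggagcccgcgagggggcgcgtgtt
The table of promoters held 14 windows for 9 of the 10 genes, and listed none for FASN. FADS2 and ACSS2 also fell in a comparison of ICG-001 with DMSO, and their windows are not shown. The 250 upstream bases of the FADS2 windows held no CCAAT, and those of the ACSS2 windows held 1 and 0. NF-Y is a general activator that works beside the sterol regulatory element binding proteins at many lipid genes. Searched on both strands over the whole windows, which also take in 50 bases after the start site, CCAAT was in 9 of 14 windows and in 7 of 9 genes, against 34.61% of all 35116 promoter windows. For the genes of cholesterol synthesis and uptake, a list described below, 76.19% of 21 windows held it. GGGCGG, the core of the Sp1 motif, was in 11 of 14 windows and 8 of 9 genes, against 44.95% of all and 90.48% of the cholesterol windows. The E-box CACGTG was in 1 window, that of ELOVL5, where it lay 211 bases before the start site, and 7.26% of all windows held it. The sterol regulatory element spelled TCACNCCAC was in 0 of 14 windows and in 1.13% of all. It was also in 0 of the 21 cholesterol windows, so this spelling did not set the members apart from them. FADS1 and FADS2 lie on opposite strands of chromosome 11, with start sites 800 and 599 bases apart for the start sites listed for FADS2, and the window shown for FADS1 held no CCAAT.

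Without drug, the lines differed in the levels of several elongase and desaturase genes. In DMSO the ELOVL6 signal of HCT116 was 1108.7 at 12 h and 989.2 at 96 h, and that of PANC1 was 147.2 and 144.8, near the limit of that line, and so 7.53- and 6.83-fold higher in HCT116. ELOVL5 was the other way round, at 1211.7 and 1525.8 in HCT116 against 3948.5 and 3904.7 in PANC1, or 3.26- and 2.56-fold higher in PANC1. FADS1 was 2.3- and 2.19-fold higher in PANC1, with 1035.4 and 1042.7 in HCT116 against 2386.1 and 2284.6 in PANC1. FADS2, which carries out the first step of polyunsaturated fatty acid synthesis, was at 143.2 and 139.6 in HCT116, on either side of the limit, and at 311.4 and 311.9 in PANC1. The genes that supply and join acetyl-CoA were brighter in HCT116 at both times: ACACA by 2.17- and 1.64-fold, ACSS2 by 1.8- and 2.44-fold, FASN by 1.88- and 1.53-fold and ACLY by 1.51- and 1.7-fold. SCD and ACSL3 were closer, with SCD 1.51- and 1.19-fold and ACSL3 1.36- and 1.33-fold higher in HCT116. The lines were normalized apart. When all 12 columns were normalized together, ELOVL6 was 7.76- and 6.89-fold higher in HCT116 and ELOVL5 3.15- and 2.46-fold higher in PANC1, while FASN at 96 h was 1.33-fold and SCD 1.27- and 1.0-fold higher in HCT116.

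**Figure D1:**
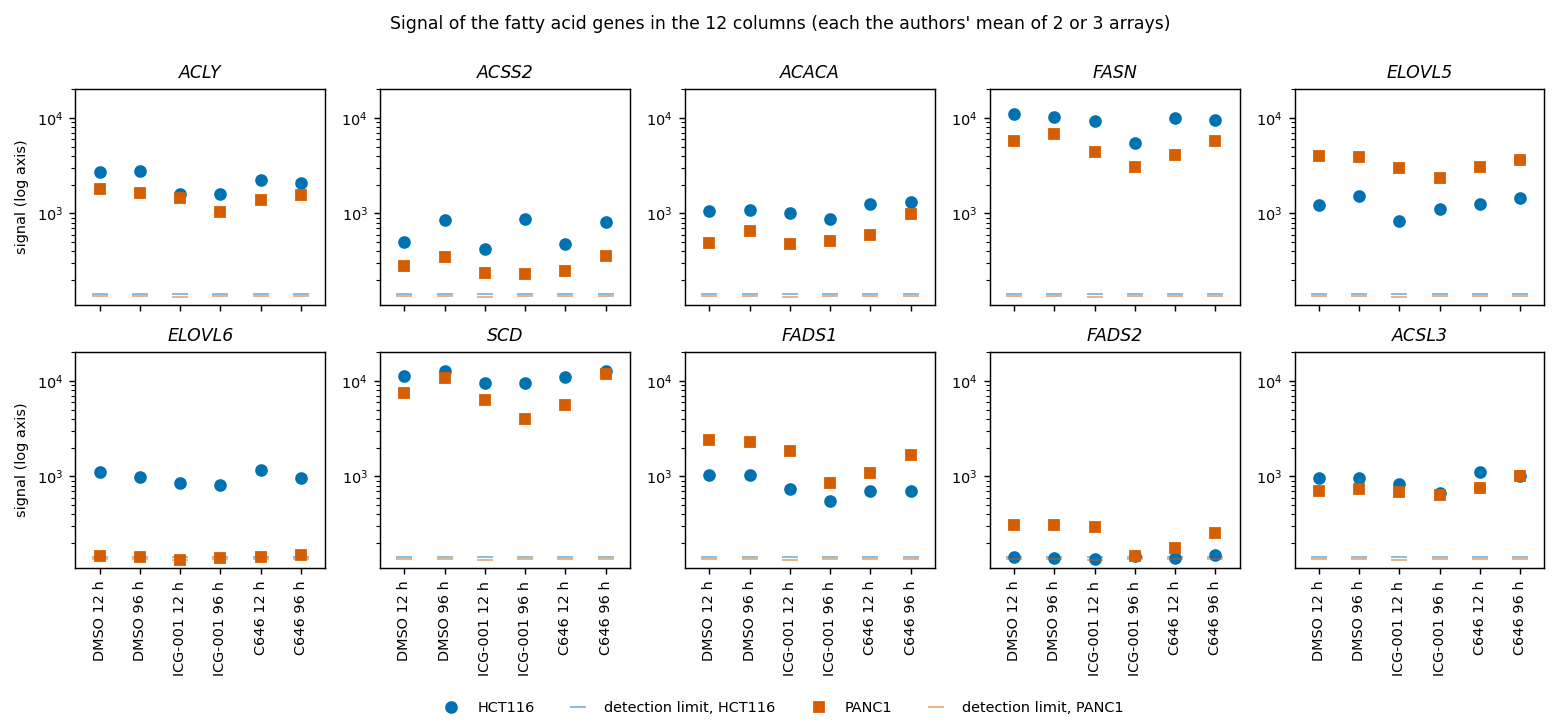
Signal of each gene (log axis, no unit) in the 6 columns of HCT116 (circles) and of PANC1 (squares), each point being the authors' mean of 2 or 3 arrays and the short lines the detection limit. In HCT116, FADS2 lay at its limit and ELOVL6 well above it, in PANC1 ELOVL6 lay at its limit, and the ICG-001 96 h column was the lowest of its line for 6 genes in HCT116 and 8 in PANC1.

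In DMSO, 1 of the 10 genes changed between the times. ACSS2 rose from 502.3 at 12 h to 852.6 at 96 h in HCT116 (log2 ratio 0.76) and was the only member past 1.5-fold in either line, where 1.54% of all genes rose and 1.55% fell in HCT116. In PANC1, where 0.976% of all genes rose and 0.331% fell, SCD went from 7493.6 to 10713.2 (log2 0.52) and ACACA from 485.1 to 657.6 (log2 0.44), both short of 1.5-fold. The median log2 ratio over the members was 0.03 in both lines. The ACSS2 step was there under every treatment of HCT116, with 423.0 at 12 h and 879.9 at 96 h of ICG-001, and 480.6 and 819.2 with C646. Against the DMSO column of their own time, the treated HCT116 columns of ACSS2 lay between log2 -0.25 and 0.05.

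After 12 h of ICG-001 in HCT116 cells, all 10 genes were below their DMSO level, by a median log2 ratio of -0.26 where the median of all 17092 genes was 0.0. ACLY alone fell, from 2703.7 to 1610.7 (log2 -0.75), and 0 rose, against 4.14% of all genes lower and 4.8% higher. ELOVL5 went from 1211.7 to 824.6 (log2 -0.56), FADS1 from 1035.4 to 745.2 (log2 -0.47) and ELOVL6 from 1108.7 to 845.7 (log2 -0.39), none past 1.5-fold. The other members lay between -0.27 and -0.07, among them SCD at 9386.9 against 11328.4 and FASN at 9249.1 against 10843.5. Set against the DMSO column of 96 h, which mixes drug with time, ELOVL5 (log2 -0.89) and ACSS2 (log2 -1.01) joined ACLY past 1.5-fold. The share of all genes is not given for that setting.

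After 96 h of ICG-001 in HCT116 cells, 3 genes fell and 0 rose, against 5.09% of all genes lower and 5.12% higher. FASN went from 10295.6 to 5498.5 (log2 -0.90), FADS1 from 1042.7 to 554.4 (log2 -0.91) and ACLY from 2770.0 to 1587.4 (log2 -0.80). ACLY was thus as low at 12 h as at 96 h, whereas the FASN signal differed 1.68-fold between the ICG-001 columns, the largest step between any neighbours in its order of columns. ACSL3 (972.3 to 678.0, log2 -0.52), ELOVL5 (log2 -0.46) and SCD (12802.1 to 9557.1, log2 -0.42) were lower by less than 1.5-fold. ACSS2 (log2 0.05) and FADS2 (log2 0.08, at the limit) were the members not below 0. The median over the members was -0.44, where that of all genes was 0.0.

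Among the comparisons with DMSO, PANC1 at 96 h of ICG-001 had the most members past 1.5-fold, and PANC1 at 12 h of ICG-001 had 0. At 12 h all 10 genes were below DMSO, between log2 -0.42 (ELOVL5, 3948.5 to 2952.0) and -0.02 (ACACA), with a median of -0.24, where 0.333% of all genes fell and 2.16% rose. ELOVL6 was under the limit in that treated column, at 133.0. The FADS1 signal was 1823.4 against 2386.1, FASN 4383.7 against 5766.9 and SCD 6365.2 against 7493.6.

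At 96 h of ICG-001 in PANC1, 7 of the 10 genes fell and 0 rose, against 3.54% of all genes lower and 3.83% higher. SCD went from 10713.2 to 4010.1 (log2 -1.42), FADS1 from 2284.6 to 855.9 (log2 -1.42) and FADS2 from 311.9 to 148.5 (log2 -1.07), which is close to the limit, so background in the signal understates that change. FASN went from 6748.7 to 3040.8 (log2 -1.15). ELOVL5 (3904.7 to 2339.6, log2 -0.74), ACLY (1630.5 to 1044.0, log2 -0.64) and ACSS2 (350.1 to 231.6, log2 -0.60) fell by less, and ACACA (log2 -0.34), ACSL3 (log2 -0.20) and ELOVL6 (log2 -0.05, at the limit) did not reach 1.5-fold. The median over the members was -0.69, where that of all 17412 genes was 0.0. Against the DMSO column of 12 h, SCD was at log2 -0.90 and ACSS2 at -0.27, no longer past 1.5-fold. With background modelled and removed, FADS2 was at log2 -1.93 and ACSS2 at -0.86.

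**Figure D2:**
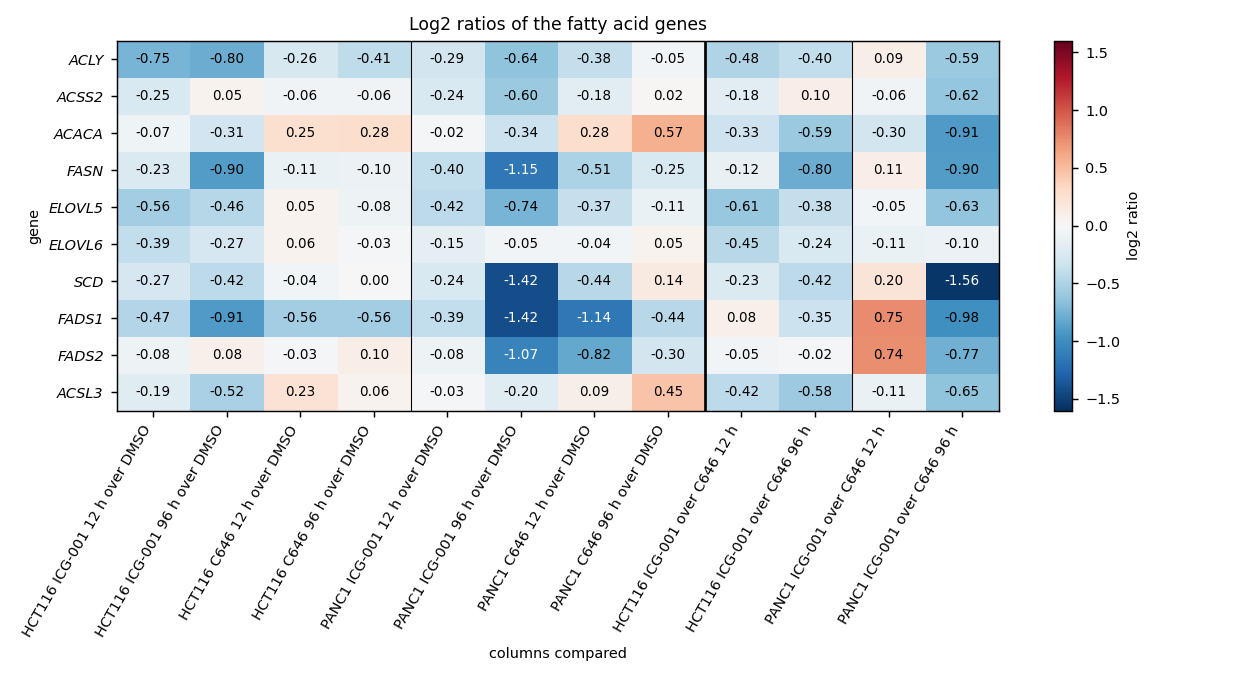
Log2 ratio of each gene (rows) in the comparisons with DMSO and between the drugs (columns), blue for lower and red for higher. The darkest blue cells are those of PANC1 at 96 h, SCD at -1.56 for ICG-001 over C646 and SCD and FADS1 at -1.42 each for ICG-001 over DMSO. FADS2 in HCT116 lay at the detection limit.

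C646 took few of these genes past 1.5-fold, and only in PANC1 at 12 h. In HCT116 cells 0 of 10 passed 1.5-fold at either time, with medians of -0.03 at 12 h and -0.04 at 96 h, where 1.52% and 1.22% of all genes fell and 2.57% and 1.9% rose. FADS1 stood lowest among them at both times, with 704.1 against 1035.4 at 12 h and 707.0 against 1042.7 at 96 h (log2 -0.56 at each), just short of 1.5-fold, and it passed that threshold when background was removed (log2 -0.64 at each). ACLY followed at log2 -0.26 and -0.41, and SCD was at -0.04 and 0.00.

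In PANC1 cells at 12 h of C646 the polyunsaturated fatty acid desaturases fell: FADS1 from 2386.1 to 1080.8 (log2 -1.14) and FADS2 from 311.4 to 176.8 (log2 -0.82). They were 2 of 10 members, and 0 rose, against 2.69% of all genes lower and 3.98% higher. The median over the members was -0.38, with 8 of 10 below 0, which was lower than the -0.24 of ICG-001 at 12 h in PANC1. FASN (5766.9 to 4054.3, log2 -0.51), SCD (7493.6 to 5541.0, log2 -0.44), ACLY (log2 -0.38) and ELOVL5 (log2 -0.37) were lower by less, and ACACA was higher by less (log2 0.28). At 96 h of C646 none of the 10 passed 1.5-fold, where 1.18% of all genes fell and 2.81% rose, and their median was -0.01. FADS1 was then at 1687.8 against 2284.6 (log2 -0.44) and FADS2 at 253.8 against 311.9 (log2 -0.30), while SCD was at 11801.2 against 10713.2 (log2 0.14). ACACA, at 977.1 against 657.6 (log2 0.57), and ACSL3, at 1000.3 against 730.4 (log2 0.45), were the highest. Ratios to the DMSO column of the other time mix drug with time, and the share of all genes is not given for them. By that column FASN (log2 -0.74), SCD (-0.95), FADS1 (-1.08) and FADS2 (-0.82) were past 1.5-fold lower at 12 h of C646. At 96 h of C646 ACACA (1.01) and SCD (0.66) were past 1.5-fold higher.

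The drugs were given at the same dose and for the same times, so their columns were also compared directly, in 4 comparisons that use no DMSO column. No structural relation between the compounds was given in the labels. The widest gap was in PANC1 at 96 h, where 9 of 10 genes were at least 1.5-fold lower with ICG-001 than with C646 and 0 higher, against 3.45% and 3.29% of all genes. SCD was 2.94-fold lower (4010.1 against 11801.2), FADS1 1.97-fold (855.9 against 1687.8), ACACA 1.88-fold (520.0 against 977.1) and FASN 1.87-fold (3040.8 against 5674.3). FADS2, ACSL3, ELOVL5, ACSS2 and ACLY were 1.71- to 1.51-fold lower, and ELOVL6, at the limit, was at log2 -0.10. At 12 h the same line gave the opposite order for FADS1 and FADS2, which were 1.69- and 1.66-fold higher with ICG-001 (1823.4 against 1080.8, and 294.3 against 176.8). These were the only members past 1.5-fold there, against 1.56% of all genes higher and 0.921% lower, and the median over the members was 0.02.

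In HCT116 cells at 12 h only ELOVL5 passed 1.5-fold (824.6 with ICG-001 against 1257.6 with C646, log2 -0.61), 1 of the 9 members that entered, against 2.81% of all genes lower and 3.43% higher. At 96 h FASN (5498.5 against 9573.2, log2 -0.80) and ACACA (872.4 against 1312.0, log2 -0.59) were lower with ICG-001, with 3.28% of all genes lower and 3.24% higher. The medians over the members were -0.33 and -0.39. ACACA and ACSL3 lay below DMSO in all 4 comparisons of ICG-001, between log2 -0.34 and -0.02 for ACACA and -0.52 and -0.03 for ACSL3, and above DMSO in all 4 of C646, between 0.25 and 0.57 for ACACA and 0.06 and 0.45 for ACSL3. The drugs share their DMSO columns, and none of these ratios reached 1.5-fold. For ACACA the pattern depended on the DMSO column. Against that of the other time point, ICG-001 at 96 h in PANC1 was at log2 0.10 and C646 at 12 h in PANC1 at -0.16. ACSL3 had no change of sign, but some of its ratios to DMSO were within the SD of background ratios. Among these were -0.03 for ICG-001 at 12 h in PANC1 and 0.06 for C646 at 96 h in HCT116.

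**Figure D3:**
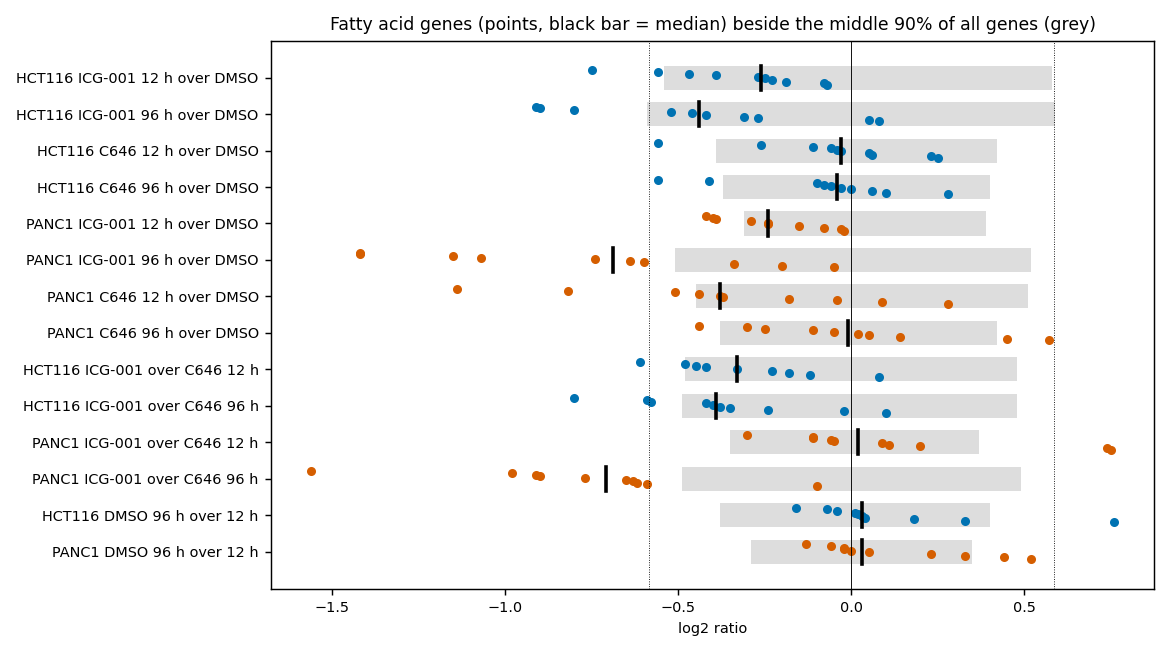
Log2 ratio (x axis) of each member that entered (points, blue for HCT116 and orange for PANC1) and their median (black bar) in 14 comparisons, over the range that holds the middle 90% of all genes (grey), with dotted lines at 1.5-fold. The grey range is that of single genes and is no yardstick for a median. The lowest medians are those of PANC1 at 96 h, at -0.69 for ICG-001 over DMSO and -0.71 for ICG-001 over C646.

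Ordered over the 6 columns of a line, every member had its lowest signal in an ICG-001 column, 10 of 10 in HCT116 and 10 of 10 in PANC1, where 37.3% and 32.5% of all genes above the limit in at least 1 column did. FADS2 in HCT116 and ELOVL6 in PANC1 are among these although both were under the limit in that column. The ICG-001 96 h column was lowest for 6 members in HCT116, against 18.5% of all genes, and for 8 in PANC1, against 23.2%. Most neighbours in these orders lay closer than 1.5-fold. The exceptions were FASN in HCT116, FADS1 in PANC1, where the C646 columns were 1.56-fold apart (1687.8 at 96 h and 1080.8 at 12 h), and ACSS2 in HCT116, where the highest of the 12 h columns and the lowest of the 96 h columns were 1.63-fold apart. From the highest to the lowest column SCD spanned 2.94-fold and FADS1 2.79-fold in PANC1, and 1.36- and 1.88-fold in HCT116.

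Across the 12 columns, with the mean of each line removed, SCD followed the mean of the other 9 members most closely (Pearson's r = 0.92), ahead of ELOVL5 (0.85), FASN (0.83) and ACLY (0.81). ACSS2 followed it least (0.35), with r = 0.86 within PANC1 and -0.03 within HCT116, where it moved with time. Among 1746 genes that varied enough to be compared, those outside the members whose profile was most like the members' mean included DHCR7 (r = 0.94), SC4MOL (0.93), SLC16A3 (0.90) and SCARB1 (0.90). DHCR7 and SC4MOL encode enzymes of cholesterol synthesis, SLC16A3 exports lactate and SCARB1 is a lipoprotein receptor. These values describe 12 columns that share their lines and controls, and carry no test.

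Genes that regulate the pathway behaved unlike each other, and INSIG1 fell most. INSIG1, itself a target of the sterol regulatory element binding proteins, went from 1108.6 to 412.7 at 12 h (log2 -1.43) and from 1752.8 to 310.7 at 96 h (log2 -2.50) of ICG-001 in HCT116, and from 957.1 to 750.1 (log2 -0.35) and 1153.5 to 377.7 (log2 -1.61) in PANC1. With C646 it lay between log2 -0.38 and 0.14. The SREBF1 signal with ICG-001 was at log2 0.01 and -0.14 in HCT116, while PANC1 had 0.09 and -0.50. With C646 it was at -0.38, -0.34, -0.42 and 0.14, and none of these ratios to DMSO passed 1.5-fold. Between the drugs in PANC1 at 96 h, SREBF1 was 1.56-fold lower with ICG-001 (333.5 against 519.9, log2 -0.64). In PANC1 at 12 h (log2 0.51) and in HCT116 (0.39 and 0.20) SREBF1 was higher with ICG-001, by less than 1.5-fold. SREBF2, at signals of 143.8 to 179.4, lay between log2 -0.29 and 0.24. SCAP was above DMSO in all 8 comparisons, and past 1.5-fold in both C646 columns of HCT116 (log2 0.64 and 0.62) and both 12 h columns of PANC1 (0.79 with ICG-001 and 1.22 with C646), where the DMSO columns themselves differed by log2 0.85 between times. INSIG2 (log2 -0.59) fell and MLXIPL (log2 0.87), a carbohydrate-responsive activator of lipogenesis, rose at 96 h of ICG-001 in HCT116. NR1H2 and NR1H3, the liver X receptors, stayed between log2 -0.45 and 0.47. Of the 22 regulators that entered in HCT116 at 96 h of ICG-001, 2 rose and 2 fell, against 5.12% and 5.09% of all genes. Of 23 in PANC1, 0 rose and 1 fell, against 3.83% and 3.54%. PPARG (log2 0.98), the adipocyte lipid regulator, was the other that rose in HCT116.

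The remaining genes of fatty acid synthesis and elongation changed in smaller numbers at 96 h than at 12 h of ICG-001 in HCT116. At 12 h 5 of 22 fell and 0 rose, against 4.14% of all genes lower, with a median of 0.0. These 5 were SLC25A1 (log2 -1.04), the citrate carrier, TECR (log2 -0.93), CYB5A (log2 -0.88), PTPLA (log2 -0.85) and SCD5 (log2 -0.81), of which SLC25A1 and SCD5 were named after their values were seen. At 12 h in PANC1, 0 of 23 fell and 1 rose, with a median of -0.09, against 0.333% of all genes lower and 2.16% higher. That gene, also named after its values were seen, was PTPLAD2 (log2 0.66). At 96 h 3 of 23 fell and 0 rose in HCT116, with a median of 0.03, against 5.09% of all genes lower. In PANC1 1 of 22 fell and 1 rose, with a median of -0.06, against 3.54% lower and 3.83% higher. No test of the difference from the members was run. Those in HCT116 were PTPLA (1002.4 to 569.2, log2 -0.82) and TECR (4361.6 to 2760.0, log2 -0.66), which complete the elongation cycle, and CBR4 (log2 -0.64), a reductase of mitochondrial fatty acid synthesis. TECR also fell in PANC1 (4648.3 to 2540.5, log2 -0.87), and CYB5A, a cytochrome that passes electrons to desaturases, rose there from 858.5 to 1871.2 (log2 1.12). Among 11 other acyl-CoA synthetases in HCT116, SLC27A2 (log2 0.86) and ACSL5 (log2 0.80) rose and SLC27A1 (log2 -0.70) fell. Of 8 in PANC1 only SLC27A5 (log2 -0.61) passed 1.5-fold. The shares of all genes were 5.12% higher and 5.09% lower in HCT116, and 3.83% higher and 3.54% lower in PANC1.

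Of the lists compared, cholesterol synthesis and uptake showed the lowest medians with ICG-001. Of all genes at 96 h, 5.09% fell and 5.12% rose in HCT116, and 3.54% fell and 3.83% rose in PANC1. Of the cholesterol genes, 13 of 23 fell in HCT116 (median -0.82) and 15 of 21 in PANC1 (median -0.84), and 0 rose. Among them were IDI1 (log2 -2.26) and SQLE (log2 -1.83) in HCT116 and DHCR7 (log2 -1.68) in PANC1. At 12 h that list stood at -0.73 in HCT116, below the members' -0.26, and at -0.27 in PANC1 beside their -0.24. Fatty acid oxidation, the opposite pathway, had a median of -0.26 at 12 h of ICG-001 in HCT116, with 21 of 26 genes below 0, which was also the median of the members there, and the other acyl-CoA synthetases had one of -0.31. In PANC1 at 12 h these lists had medians of -0.03 and -0.07. At 96 h oxidation had medians of -0.14 in both lines. Of its 26 genes in HCT116, 2 were higher and 1 lower, against 5.12% and 5.09% of all genes. In PANC1 1 of 24 was higher and 0 lower, against 3.83% and 3.54%. DCI, which moves double bonds during oxidation, rose in both lines (log2 1.10 and 1.03), and in HCT116 HADHB (log2 0.62) rose and ACAA2 (log2 -0.95) fell. Of the glycerolipid and lipid droplet genes, 3 of 22 fell and 1 rose in HCT116, against 5.09% and 5.12% of all genes. In PANC1 3 of 19 fell and 0 rose, against 3.54% and 3.83%. Those that fell in HCT116 included LPIN1 (log2 -1.17), which makes diacylglycerol, and the lipase gene PNPLA2 (log2 -0.99), with AGPAT9 (log2 0.99) rising. The third that fell there, named after its values were seen, was the fatty acid carrier gene FABP5 (log2 -0.82). In PANC1 they were LPCAT3 (log2 -0.85), which acts on phospholipid chains, the droplet coat gene PLIN2 (log2 -0.81), and C7orf68 (log2 -0.80). The lists overlap in function with the members and were described by counts and medians alone.

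**Figure D4:**
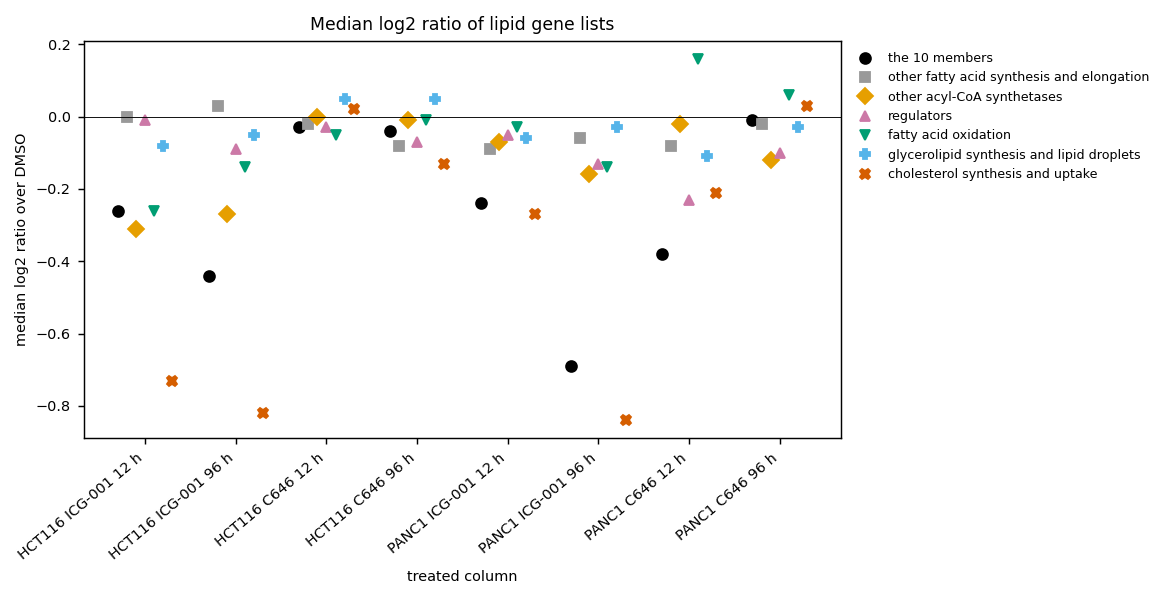
Median log2 ratio over DMSO (y axis) of the members (black circles) and of the other gene lists in each treated column (x axis). The members and the cholesterol genes were the lowest pair in HCT116 at 96 h and in PANC1 at both times of ICG-001 (-0.69 and -0.84 in PANC1 at 96 h). With C646 the cholesterol genes lay between -0.21 and 0.03, and the members were the lowest list in PANC1 at 12 h, at -0.38.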

How the data were processed

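RNA of 12 groups was measured on Illumina HumanHT-12 BeadChips. The deposited table gives 1 linear signal intensity per gene name. The authors quantile normalized the arrays in GenomeStudio, subtracted no background, and averaged the values over 2 independent biological replicates (3 in PANC1 ICG-001 12 h, by the labels). No genome build for the array annotation was given in the sources used here. All 12 columns were used, and 0 columns were left out.

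Ratios are differences of log2 signal. Each column's detection limit was set 2.33 SD above the peak of its log2 distribution, with the SD of the values below that peak. Genes above it in either column entered, and a 1.5-fold ratio counted as changed. Each group had 1 column, so no test was run and differences are sizes. The 10 genes and the lists were chosen with earlier results of these data known. All members were named with their values, as were SREBF1, SREBF2, SCAP, INSIG1, INSIG2, MLXIPL, NR1H2 and NR1H3, the 3 largest changes of each other list at 96 h of ICG-001 in each line among genes changed 1.5-fold, and the 5 genes most like the members' mean profile (log2 signal minus the mean of its line, over genes with an SD of at least 0.3). Part of the genes under this rule is not reported here.

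Promoter windows and current gene names came from RefSeq (GRCh38.p14). Alternatives were fold thresholds of 1.2 and 2, no limit, a limit at 5 SD, normexp (offset 16) with quantile normalization repeated per line, centring on the median, quantile normalization over 12 columns, and the DMSO column of the other time point. The tools were pandas 2.3.3, numpy 2.4.6 and scipy 1.17.1 in Python 3.11.15, matplotlib 3.10.9 for plots, and R 4.3.3 with limma 3.58.1, and the procedure was tested on simulated data.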

Additional observations from a re-analysis of the deposited data

How the results depend on the processing

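No ratio of a member past 1.5-fold changed direction under the alternatives. The medians that changed sign were those of C646 in HCT116 at 12 h (-0.03, and 0.02 with normexp) and at 96 h (-0.04, and 0.08 against the other DMSO column). The signals of single arrays were not used, so no setting here measures the spread between replicates, and no paired analysis was possible because each group had 1 column. Without a limit, with centring on the median and with quantile normalization over 12 columns, none of the 14 counts moved by over 1.5 times and none of the 14 medians by more than the SD of background ratios, and a limit at 5 SD moved 1 median, that of ICG-001 over C646 in PANC1 at 12 h, to 0.09. Background left in the signal limits the dim genes FADS2, ACSS2 and, in PANC1, ELOVL6.

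The fold threshold moved the counts of changed members most. Shares of all genes are given here for the main setting only, so the counts under other settings are no result about the members. At 1.2-fold, ICG-001 in HCT116 changed 5 members at 12 h and 8 at 96 h and in PANC1 changed 4 at 12 h, and C646 changed 1 and 3 in HCT116 and 7 and 4 in PANC1. In HCT116 the drugs then differed at 5 members at 12 h and 7 at 96 h, and the DMSO columns at 2 in HCT116 and 3 in PANC1. At 2-fold, ICG-001 changed 0 members at both times in HCT116 and 4 at 96 h in PANC1, C646 changed 1 at 12 h in PANC1, the drugs differed at 0 at both times in HCT116 and at 0 and 1 in PANC1, and the DMSO columns of HCT116 differed at 0.

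With normexp, 2 members changed at 12 h of ICG-001 in HCT116, 1 at each time of C646 in HCT116 and 1 at 96 h of C646 in PANC1. The last was ACACA, which rose (log2 0.65), while the others fell. Medians in PANC1 became -0.35 at 12 h and -0.82 at 96 h of ICG-001, and 0.09 and -0.91 for ICG-001 over C646. Against the DMSO column of the other time point, the counts were 3 at 12 h of ICG-001 in HCT116, 1 at each time of C646 in HCT116, 2 at 12 h of ICG-001 in PANC1, and 4 and 2 for C646 in PANC1. The HCT116 member with C646 was ACSS2, lower at 12 h (log2 -0.83) and higher at 96 h (log2 0.71). In PANC1 with C646 the 4 were lower and the 2 higher. The medians were then -0.45 and -0.35 for ICG-001 and -0.22 and 0.08 for C646 in HCT116, and -0.36 and -0.77 for ICG-001 in PANC1. The cause was not tested.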

Other observations

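The columns of the same drug at its times were compared after their values had been seen. In PANC1 with C646, all 10 members were higher at 96 h than at 12 h, with a median log2 ratio of 0.50 where all genes had 0.0. SCD went from 5541.0 to 11801.2, ACACA from 589.2 to 977.1 and FADS1 from 1080.8 to 1687.8. The regulators INSIG1 (736.6 to 1266.7) and SREBF1 (284.6 to 519.9) were higher at 96 h as well. In DMSO of PANC1, SCD (log2 0.52), ACACA (0.44), SREBF1 (0.31) and INSIG1 (0.27) were also higher at 96 h, while FADS1 was at -0.06. The members' median in DMSO was 0.03, with 4 of 10 below 0. Time and culture density cannot be told apart in these comparisons. In PANC1 with ICG-001 the order was the reverse of that with C646 for most members, with a median of -0.41 and 8 of 10 below 0. FADS1 went from 1823.4 to 855.9, FADS2 from 294.3 to 148.5 and SCD from 6365.2 to 4010.1. In HCT116 the medians were -0.03 with ICG-001 and 0.03 with C646.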
